A study of Homo sapiens with 12 samples.

Results

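The genes described here are the neuronal ion channels and transmitter receptors of cerebral organoids (COs), chosen by gene symbol. The rule takes the potassium channel symbols (*KCN* followed by letters and a number), sodium channels (*SCN*), calcium channels (*CACNA*, *CACNB* and *CACNG*), ionotropic glutamate receptors (*GRIA*, *GRIK* and *GRIN*), metabotropic glutamate receptors (*GRM*), GABA-A receptors (*GABR*) and glycine receptors (*GLRA* and *GLRB*). It found 52 of the 10976 genes listed. Of these, 51 are protein-coding and 1, *KCNQ1OT1*, is a long non-coding RNA whose symbol happens to match. No measured value entered the rule.

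COs were induced from 3 lines of H1, a human embryonic stem cell line: H1 itself (WT), and KO#2 and KO#10, each a single clone of H1 in which *c-JUN* was targeted with CRISPR-Cas9. No line carried another edit or received an added agent according to the labels. Several COs were pooled for each RNA sample, and there were 2 libraries for each line on day 12 and on day 24, which gave 2 WT and 4 KO libraries a day. The labels do not say that the 2 libraries of a line came from separate inductions, so that *p*-values measure the spread between these libraries only, which may be technical.

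Voltage-gated sodium, calcium and potassium channels open with the membrane potential and shape the firing of a neuron, and auxiliary subunits set how many of them reach the surface and how fast they open. AMPA, kainate and NMDA receptors are cation channels opened by glutamate, metabotropic glutamate receptors signal through G proteins, and GABA-A and glycine receptors are chloride channels. In early neural tissue many of these genes are first transcribed at low levels, before synapses form, and some are also used by epithelia.

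The deposited value of a gene is a whole-number normalised score. Every library had the same median of 17 and the same highest value of 5585, so that the scores are not raw counts and neither depth nor counting error can be read from them. It is not known if gene length was accounted for, so that the level of one gene cannot be ranked against that of another. The score of *JUN*, which was targeted, was higher under the KO label. At day 24 the scores were 13 and 15 in WT, 39 and 39 for KO#2, and 29 and 32 for KO#10 (log2 fold change 1.25, SE 0.17, limma adjusted *p* = 0.0184). Such a score holds no information on the edit itself, so every direction below rests on the labels.

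The KO#10 replicate 1 library of day 24 stood apart from the other 3 KO libraries of that day. Its summed score of 9 hepatic and yolk sac markers was 1302, against 33 to 107 in the other KO libraries and 7186 to 7368 in WT. The sum of 7 muscle and mesenchyme markers was 2518 there, against 100 to 152 in the other KO libraries and 2030 to 2345 in WT. Its 13 neuron markers summed to 484, against 1454 to 2127 in the other KO libraries and 208 to 355 in WT. For most of the tested genes, the overlap counts and the related lists, values at day 24 are also given without it. In bulk RNA, fewer cells of a type and less RNA per cell cannot be told apart.

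The scores of the channel and receptor genes were mostly small, a description of these scores and not of transcripts per gene. Of the 52 genes, 40 (76.9%) had a mean score under 10 over the 12 libraries, against 24.3% of all genes, and none had a mean of at least 100. Their median mean was 5.67, against 17.7 over all genes. In 24 genes no library reached a score of 10.

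By family, 10 of the 15 protein-coding potassium channel genes reached 10 in at least 1 library, 7 of 11 calcium channel genes, 5 of 8 ionotropic glutamate receptor genes and 3 of 9 GABA-A and glycine receptor genes. Among the 5 sodium channel genes only *SCN3A* did, and among the 3 metabotropic receptors only *GRM3*. *GRIN2B*, the only NMDA receptor gene listed, scored between 0 and 2 in all 12 libraries. *GLRA2*, a glycine receptor alpha subunit, did not pass 1. A change of 1 or 2 score units is a large ratio at such levels, and fold changes on the log2 (score + 1) scale used here understate the change of low genes.

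*c-JUN* encodes a subunit of AP-1, a DNA-binding factor, and its motif was searched here as TGANTCA, with any base accepted at N. RefSeq promoter windows of 300 bases (GRCh38.p14, 250 before to 50 after an annotated start) were available for 34 of the 52 genes, in 62 windows. The motif, which reads the same on both strands, was present in 2 of these windows (3.23%), and in 2704 of all 35093 windows (7.71%). The 2 matches are shown because they were the only ones in the set, with the motif in capitals. The first lies on chr1:154859880-154859920 (minus strand, 5′ to 3′) and the second on chr2:166128245-166128270 (minus strand), and neither stretch overlaps an annotated exon.
KCNN3: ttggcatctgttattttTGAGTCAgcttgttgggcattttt
SCN1A: ttTGAGTCAttaggttcatgatatta
*KCNN3* encodes a small-conductance calcium-activated potassium channel, and its scores stayed between 1 and 6 in all libraries. *SCN1A*, a sodium channel pore subunit, scored 7 and 5 in WT at day 12 and 1, 1, 2 and 2 in the KO libraries of that day. All 4 KO libraries lay below both WT libraries for *SCN1A* on that day, as in 7.93% of all genes, and the gene was too low to be tested. At day 24 it scored 2 and 2 in WT and 1, 3, 3 and 3 in KO, and the groups overlapped. A match of letters is a description of the window and not a binding site. The related motif TGACGTCA, which was searched after the data had been seen, was in no window of these genes and in 1.85% of all windows.

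Promoter sequence is shown for 3 glutamate receptor genes with results below, at 1 annotated start of each. The stretches hold the 120 bases before an annotated start, outside exons, on the plus strand from 5′ to 3′, with each CpG in capitals. All 3 lie inside the listed interval of their gene, downstream of its first base. *GRIK2* is on chr6:101393588-101393707, *GRIA1* on chr5:153492052-153492171 and *GRIA2* on chr4:157220499-157220618.
GRIK2: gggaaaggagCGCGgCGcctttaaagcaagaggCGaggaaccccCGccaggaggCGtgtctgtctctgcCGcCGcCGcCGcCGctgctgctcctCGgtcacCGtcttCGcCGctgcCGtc
GRIA1: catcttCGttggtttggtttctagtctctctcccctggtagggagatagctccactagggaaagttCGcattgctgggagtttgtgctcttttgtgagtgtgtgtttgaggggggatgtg
GRIA2: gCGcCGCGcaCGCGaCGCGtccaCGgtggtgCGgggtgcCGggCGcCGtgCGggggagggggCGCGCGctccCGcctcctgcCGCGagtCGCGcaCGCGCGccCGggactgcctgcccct
They contain 16, 2 and 25 CpGs, respectively, and these numbers depend on the start that is taken. In the 250 bases before each available start there were 9 and 25 CpGs for *GRIK2*, 5 and 7 for *GRIA1*, and 6, 8 and 43 for *GRIA2*. None of the 3 holds an AP-1 match.

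To ask how the edited lines differed from WT in COs with some neuronal differentiation, KO and WT were compared at day 24. *CACNG4* was called higher in KO and *GABRP* lower. *GRIK2* was called higher at the threshold, and its call did not survive leaving out any 1 library. When 1 library was left out, *CACNG4* kept its call only without KO#10 replicate 1. *GABRP* kept its call without each KO library and could not be tested without either WT library. Of the 52 genes, 19 had a score of at least 10 in at least 2 libraries and were tested, and 2 were called higher and 1 lower at an adjusted *p* under 0.05 and a change of at least 2-fold. Over all 9289 genes tested, 4.22% were called higher and 3.79% lower, 8.01% in all. Of the 19 genes, 7 (36.8%) passed the filter on low scores through KO libraries alone, against 8.47% of all genes tested, and 1, *GABRP*, through WT libraries alone. These 7 were *GRIK2*, *SCN3A*, *KCNN1*, *KCNK2*, *GRM3*, *GLRB* and *KCNH2*, and the signs of the estimates over the tested genes are therefore not counted. The calls of *GRIK2* and *GABRP* carry the same limit, so the counts of calls are not read against the shares of all genes.

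*CACNG4* encodes TARP gamma-4, an auxiliary subunit of AMPA receptors that belongs to the calcium channel gamma family (chr17:66964707-67033398). Its day 24 scores were 12 and 7 in WT, 32 and 48 for KO#2, and 24 and 43 for KO#10. All 4 KO libraries lay above both WT libraries, and the mean was 9.50 ± 3.54 (SD, n = 2) for WT against 36.8 ± 10.8 (SD, n = 4) for KO. The log2 fold change was 1.84 (SE 0.32, limma adjusted *p* = 0.0218).

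*GRIK2* encodes the GluK2 subunit of kainate receptors (chr6:100962701-102081622). It scored 7 and 5 in WT, 13 and 15 for KO#2, and 14 and 10 for KO#10, with no overlap between WT and KO. WT averaged 6.0 ± 1.41 (SD, n = 2), KO 13.0 ± 2.16 (SD, n = 4). The change of 2.00-fold (log2 fold change 1.00, SE 0.23, limma adjusted *p* = 0.0346) lay at the threshold for a call, and *GRIK2* was tested only because KO libraries reached 10. *GRIK5*, the GluK5 subunit of the same receptors, scored 10 and 10 in WT and 12 to 21 across KO (log2 fold change 0.64, adjusted *p* = 0.0861) and was not called.

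*GABRP* encodes the pi subunit of GABA-A receptors, which is known mainly from epithelia outside the brain (chr5:170763350-170814047). At day 24 it scored 28 and 39 in WT, 4 and 4 for KO#2, and 5 and 6 for KO#10. Every KO library lay far below both WT libraries, with means of 33.5 ± 7.78 (SD, n = 2) and 4.75 ± 0.96 (SD, n = 4), respectively. The log2 fold change was −2.58 (SE 0.24, limma adjusted *p* = 0.00759), the largest among the 19 genes. The summed score of 11 epithelium markers moved the same way, with 808 to 1110 in WT and 60 to 284 in KO. All 11 were called lower, but some, such as *EPCAM* and *CDH1*, passed the filter on low scores through WT libraries alone. The part of these markers in the result for *GABRP* was not tested.

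**Figure D1:**
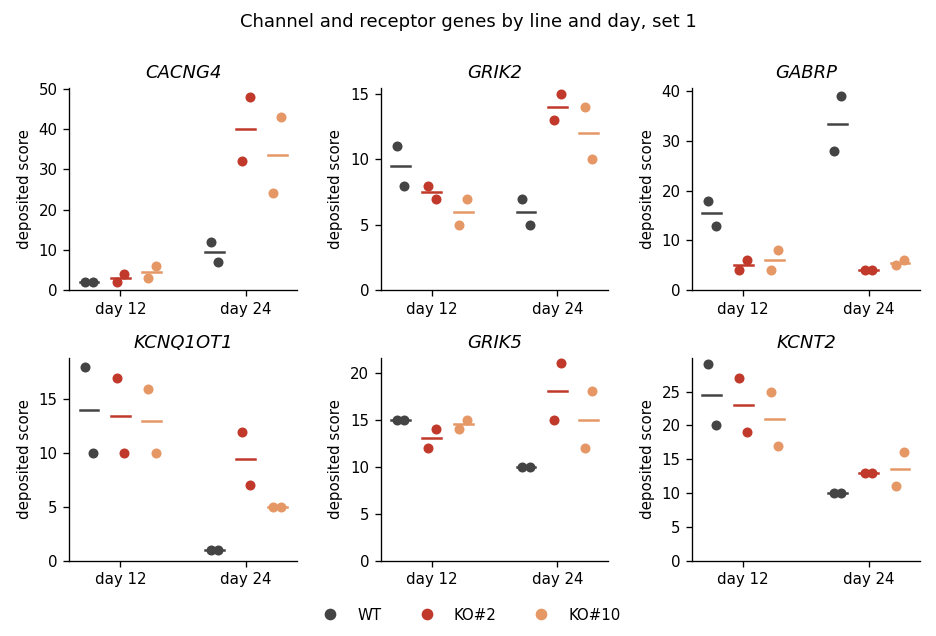
Scores of 6 genes by line and day. Each panel plots the normalised score (y axis) for WT, KO#2 and KO#10 on day 12 and day 24, each dot is a library and each bar the mean of 2 libraries. At day 24 *CACNG4* sits at 7 and 12 in WT and at 24 to 48 in KO, and *GABRP* at 28 and 39 in WT and at 4 to 6 in KO.

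Leaving out a library changed these calls. Where 1 WT library is left, it is assumed to vary as the KO libraries do. *GABRP* remained called without each KO library in turn (adjusted *p* from 0.00338 to 0.0398) and failed the filter on low scores without either WT library. *CACNG4* was called without KO#10 replicate 1 (log2 fold change 2.02, adjusted *p* = 0.00692). It lost its call without WT replicate 1 (2.19, adjusted *p* = 0.0625), WT replicate 2 (1.49, 0.245), KO#2 replicate 1 (1.89, 0.0528), KO#2 replicate 2 (1.70, 0.0679) or KO#10 replicate 2 (1.75, 0.0723). *GRIK2* was not called without any 1 of the 6 libraries, and without KO#10 replicate 1 its log2 fold change was 0.96 at an adjusted *p* of 0.0295. Over the 6 leave-outs of *GRIK2* the log2 fold change ran from 0.79 to 1.21. The calls over all genes moved as well, from 0.0224% without WT replicate 2 to 14.7% without KO#10 replicate 1.

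The other tested genes were spread over most families, and none was called. In the AMPA receptors, *GRIA2*, the GluA2 subunit that limits calcium entry, scored 10 and 4 in WT, 21 and 22 for KO#2, and 6 and 15 for KO#10. WT and KO overlapped in *GRIA2* because of KO#10 replicate 1, and its log2 fold change was 1.06 (limma adjusted *p* = 0.193). Without that library *GRIA2* was called higher (log2 fold change 1.44, adjusted *p* = 0.0333). *SCN3A*, a sodium channel pore subunit prominent in the fetal brain, scored 8 and 3 in WT, 17 and 16 for KO#2, and 7 and 10 for KO#10 (log2 fold change 1.09, adjusted *p* = 0.121).

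*KCNK2*, the leak channel TREK-1, scored 8 and 8 in WT and 10 to 15 across KO without overlap (log2 fold change 0.62, adjusted *p* = 0.0774). *KCNN1*, a small-conductance calcium-activated channel, had scores of 3 and 7 in WT and 5 to 13 across KO (log2 fold change 0.84, adjusted *p* = 0.21). *KCNJ13*, the inward rectifier Kir7.1 of choroid plexus and retinal pigment epithelium, had an estimate of −0.03 (adjusted *p* = 0.943), with scores of 11 and 10 in WT and 8 to 14 in KO.

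Among the calcium channel genes, *CACNA1H*, the pore of a T-type channel, scored 11 and 13 in WT and 14 to 22 across KO (log2 fold change 0.52, adjusted *p* = 0.158). *CACNB3*, an intracellular beta subunit, scored 21 and 17 in WT and 23 to 29 in KO (0.42, adjusted *p* = 0.11). For both, the KO libraries lay above the WT libraries. *CACNA2D1*, the alpha2delta-1 subunit, overlapped, with 8 and 12 in WT and 9 to 24 in KO (0.46, adjusted *p* = 0.381). A pair of receptor genes of other families had similar estimates, *GRM3*, a metabotropic glutamate receptor (0.47, adjusted *p* = 0.25), and *GLRB*, the glycine receptor beta subunit (0.46, adjusted *p* = 0.241).

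Without KO#10 replicate 1, when 7.86% of all genes were called higher and 6.8% lower, *GRIA2* and *CACNG4* were called higher and *GABRP* lower. *SCN3A* had a log2 fold change of 1.32 (limma adjusted *p* = 0.0543) and *KCNN1* 1.10 (adjusted *p* = 0.0698). *KCNK2* (0.73, adjusted *p* = 0.0227) and *GRIK5* (0.78, adjusted *p* = 0.0233) passed the *p* threshold below 2-fold. *CACNA1H* (0.62), *CACNB3* (0.47), *CACNA2D1* (0.65), *GRM3* (0.56) and *GLRB* (0.58) had adjusted *p* from 0.0769 to 0.175, and *KCNJ13* had −0.16 (adjusted *p* = 0.518).

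Over all 52 genes, tested or not, the 4 KO libraries lay above both WT libraries in 14 genes (26.9%) and below in 1 gene (1.92%), *GABRP*. Over all 10976 genes these shares were 21.8% and 20.1%. Without KO#10 replicate 1, KO lay above in 29 genes (55.8%) and below in 1, against 29.5% and 26.7% of all genes. The 14 genes were the calcium channel genes *CACNA1C*, *CACNA1H*, *CACNB1*, *CACNB3* and *CACNG4*, the potassium channel genes *KCNE4*, *KCNH7*, *KCNK2* and *KCNT2*, the receptor genes *GABRA3*, *GRIK2*, *GRIK5* and *GRIN2B*, and *KCNQ1OT1*, and 7 of them were among the 19 tested.

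**Figure D2:**
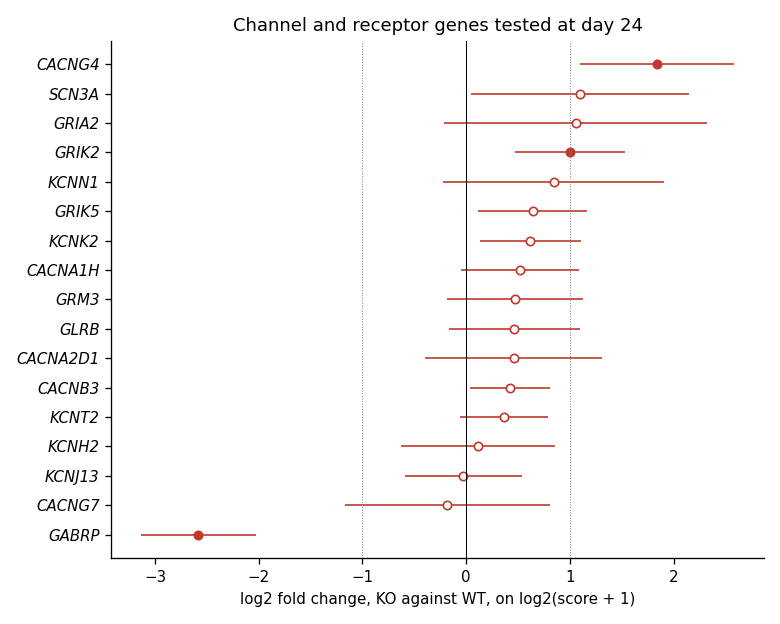
Log2 fold change of KO against WT at day 24 for 17 of the 19 genes tested (x axis, log2 of score + 1), with 95% intervals from limma. Filled points were called and dotted lines mark a change of 2-fold in either direction. *GABRP* lies at −2.58, *CACNG4* at 1.84 and *GRIK2* at 1.00, and the 14 other points are open.

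Summed over a family, the KO#2 libraries were the highest at day 24 in the calcium, sodium, kainate and AMPA families. The 11 calcium channel genes summed to 83 and 83 in WT, 142 and 167 for KO#2, and 103 and 139 for KO#10. The 5 sodium channel genes summed to 18 and 11 in WT, 34 and 38 for KO#2, and 18 and 28 for KO#10. The 7 GABA-A receptor genes summed to 55 and 78 in WT and 26 to 46 in KO, and without *GABRP* to 27 and 39 in WT and 21 to 42 in KO. The GABA-A sums therefore separated WT from KO with *GABRP* and overlapped without it. Sums are dominated by the genes with the highest scores.

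The neuron markers were higher in KO, as the calcium channel sum was, while the GABA-A sum with *GABRP* was lower. The summed score of the neuron markers was 208 to 355 in WT and 484 to 2127 in KO at day 24. Of the 12 tested, 4 were called higher, or 11 of 12 without KO#10 replicate 1. Some, such as *ELAVL3* and *ELAVL4*, passed the filter on low scores through KO libraries alone. In the lists called lower, some markers, such as *L1TD1* of the pluripotency list, passed it through WT libraries alone. KO#10 replicate 1 had the lowest KO sum both for the neuron markers (484) and for all 52 channel and receptor genes (330, against 462 to 519 in the other KO libraries and 324 to 327 in WT). The part of neuron content in the differences was not tested. Of the other lists at day 24, 3 of 12 neural progenitor markers were called higher, and 7 of 7 pluripotency, 4 of 8 hepatic and yolk sac and 2 of 7 muscle and mesenchyme markers lower. Of 4 choroid plexus markers, 1 was called higher and 2 lower, and none of 3 astrocyte and oligodendrocyte markers was called. Without KO#10 replicate 1 the hepatic and yolk sac count was 8 of 8 and the muscle and mesenchyme count 6 of 7.

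**Figure D3:**
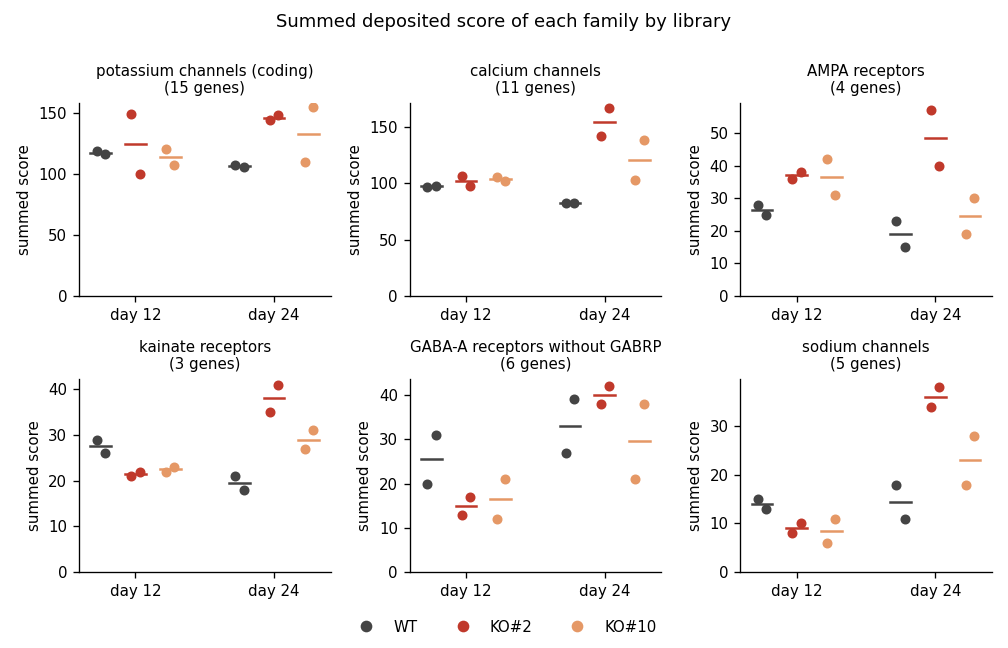
Summed normalised score of the channel and receptor families by line and day. Each dot is a library (y axis, sum of scores over the genes of the family, *GABRP* left out of the GABA-A panel) and each bar the mean of 2. At day 24 the calcium channel sum was 83 in both WT libraries and 103 to 167 in KO.

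Each clone was also set against WT at day 24. In KO#2, *CACNG4* (log2 fold change 1.98, limma adjusted *p* = 0.0375) and *GRIK2* (1.11, adjusted *p* = 0.0481) were called higher and *GABRP* lower (−2.77, adjusted *p* = 0.0214), where 4.74% of all genes were called higher and 4.26% lower. In KO#10, *GABRP* alone was called (−2.39, adjusted *p* = 0.0406), with 0.14% of all genes called in each direction. *CACNG4* (1.70, adjusted *p* = 0.0999) and *GRIK2* (0.89, adjusted *p* = 0.136) had estimates of the same sign in KO#10. Both clones were compared with the same WT libraries. Between KO#2 and KO#10 no channel or receptor gene was called by limma and none had an unadjusted *p* under 0.05, where 0 of all genes were called and 5.16% had an unadjusted *p* under 0.05.

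At day 12 the same comparison called none of the 18 genes tested. Over all 8885 genes, 0.0225% were called higher and 0.0675% lower, 0.09% in all. An unadjusted *p* under 0.05 was found for 2 of the 18 genes and for 11% of all genes.

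*GABRP* was already lower in the KO libraries by its scores at day 12, with 18 and 13 in WT, 4 and 6 for KO#2, and 4 and 8 for KO#10. WT and KO did not overlap, but the difference was not called (log2 fold change −1.37, SE 0.32, limma adjusted *p* = 0.17). Same-numbered libraries moved together on this day, and with the replicate number as a block, where 0.799% of all genes were called, *GABRP* remained uncalled (adjusted *p* = 0.0732). Other markers differed as well. The epithelium markers summed to 430 to 455 in WT and 235 to 369 in KO, with none of 10 called, and the pluripotency markers to 846 to 1053 in WT and 469 to 527 in KO, with 3 of 7 called lower. Their part in the scores of *GABRP* was not tested.

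Over all 52 genes at day 12, KO lay above WT without overlap in 1 gene (1.92%), the AMPA receptor subunit *GRIA4*, and below in 4 (7.69%), which included *GABRP* and the sodium channel genes *SCN1A* and *SCN8A*. The shares over all genes were 7.7% and 7.93%. At this day the 13 neuron markers summed to 186 and 280 in WT and 276 to 379 in KO.

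To follow the genes over time, day 24 was compared with day 12 within each genotype. In WT, 25 genes were tested, and 3 were called higher and 5 lower, where 7.17% and 7.88% of all genes were. In KO, 6 were called higher and 4 lower, where 5.88% and 5.59% of all genes were. *CACNG4*, *GRIA2*, *SCN3A*, *KCNN1* and *KCNH2* passed the filter on low scores through day 24 libraries alone. *CACNA1A* and *KCNE4* passed it through day 12 libraries alone, and *KCNH2* did not reach 10 in any WT library. These counts are therefore not read against the shares of all genes. *CACNG4* and *KCNH2* were called higher in both genotypes, and *GRIA1*, *CACNA1A* and *KCNE4* lower in both. The days were compared in separate libraries of the same lines, and each genotype's fold changes are given side by side.

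Markers of several cell types moved with day. In WT, 6 of 12 neuron markers, 8 of 8 hepatic and yolk sac markers, 6 of 7 muscle and mesenchyme markers and 2 of 11 epithelium markers were called higher. In KO, 10 of 12 neuron markers were called higher, while 11 of 11 epithelium and 7 of 8 pluripotency markers were called lower. Some markers, such as *APOB* of the hepatic and yolk sac list, passed the filter on low scores through day 24 libraries alone. The part of the marker changes in those of the channel and receptor genes was not tested.

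*CACNG4* scored 2 and 2 in WT at day 12 and 12 and 7 at day 24, a log2 fold change of 1.77 (limma adjusted *p* = 0.00763). In KO it went from 2 to 6 at day 12 to 24 to 48 at day 24, the largest change of the set (log2 fold change 3.01, SE 0.28, adjusted *p* = 2.41e-05). No library of day 24 overlapped with one of day 12 in either genotype. *KCNH2*, a pore subunit of the hERG channel, scored 2 and 4 and then 8 and 7 in WT (1.13, adjusted *p* = 0.0489), and 2 to 4 and then 5 to 11 in KO (1.22, adjusted *p* = 0.0053).

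The 2 main AMPA receptor genes went in opposite directions. *GRIA1*, the GluA1 subunit, scored 19 and 13 in WT at day 12 and 4 and 3 at day 24 (log2 fold change −1.90, limma adjusted *p* = 0.0146). In KO it scored 21, 19, 28 and 15 at day 12 and 16, 8, 3 and 7 at day 24 (−1.35, adjusted *p* = 0.0105), so that only KO#2 replicate 1 of day 24, at 16, overlapped with the range of day 12. *GRIA2* scored 1 and 1 in WT at day 12 and 10 and 4 at day 24, which was not called (1.89, adjusted *p* = 0.0874). In KO it scored 0 to 6 at day 12 and 6 to 22 at day 24, so that the days met at 6 (2.35, adjusted *p* = 0.00614).

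Further genes were called higher in KO only by the threshold, and the difference between genotypes was not called for any of them. *KCNN1* scored 1 to 2 in KO at day 12 and 5 to 13 at day 24 (log2 fold change 1.90, limma adjusted *p* = 0.00232), and its estimate in WT was 1.00 (adjusted *p* = 0.172). *SCN3A* scored 1 to 4 and then 7 to 17 in KO (1.87, adjusted *p* = 0.00341), with 1.29 in WT (adjusted *p* = 0.101). In the annotation *SCN3A* overlaps *SCN2A*, *GRIK5* overlaps *ZNF574*, *CACNA1H* overlaps *TPSG1* and *KCNJ13* lies in *GIGYF2*, each on opposite strands. The libraries were made with a dUTP-labelled second strand that was then digested, so that they hold the strand of a read. Whether the authors counted reads by strand is not stated, and if they did not, reads of such pairs may be shared.

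**Figure D4:**
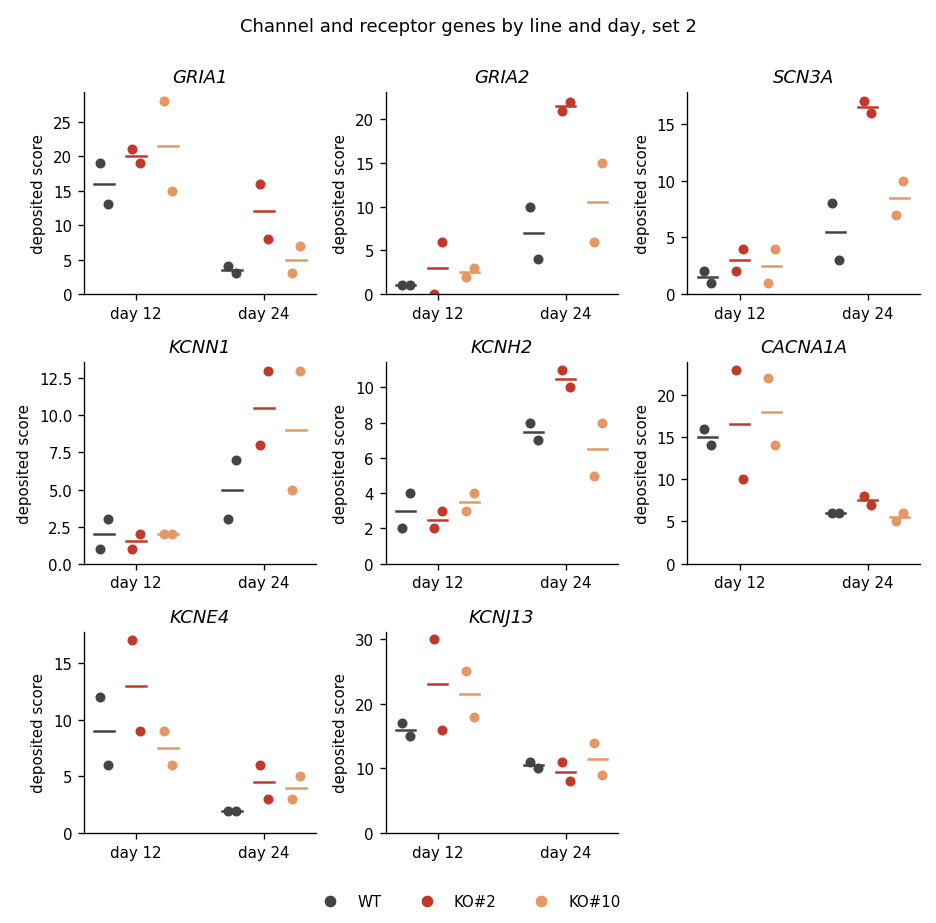
Scores of 8 genes by line and day. Each panel plots the normalised score (y axis) for WT, KO#2 and KO#10 on day 12 and day 24, each dot is a library and each bar the mean of 2 libraries. *GRIA1* and *CACNA1A* are lower at day 24 than at day 12 in every line's mean, and *GRIA2*, *SCN3A*, *KCNN1* and *KCNH2* higher.

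Among the genes that fell, *CACNA1A*, the pore of the P/Q-type calcium channel, scored 16 and 14 in WT at day 12 and 6 and 6 at day 24 (log2 fold change −1.19, limma adjusted *p* = 0.02). In KO its scores were 10 to 23 and then 5 to 8 (−1.23, adjusted *p* = 0.00194), without overlap. *KCNE4*, an auxiliary subunit that inhibits some potassium channels, scored 12 and 6 and then 2 and 2 in WT (−1.67, adjusted *p* = 0.0171) and 6 to 17 and then 3 to 6 in KO (−1.06, adjusted *p* = 0.0212). *KCNJ13* was called lower in KO, where it scored 16 to 30 and then 8 to 14 (2.00-fold lower, adjusted *p* = 0.00285).

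*KCNQ1OT1*, an antisense RNA that lies within *KCNQ1* and is known for imprinting of that locus (chr11:2608328-2699994), had the largest decrease in WT. It scored 18 and 10 at day 12 and 1 and 1 at day 24 (log2 fold change −2.85, SE 0.41, limma adjusted *p* = 0.000795). In KO it scored 17, 10, 16 and 10 at day 12 and 12, 7, 5 and 5 at day 24 (−0.83, adjusted *p* = 0.0386), which is less than 2-fold. *KCNT2*, a sodium-activated potassium channel, scored 29 and 20 and then 10 and 10 in WT (−1.19, adjusted *p* = 0.00511), and its decrease in KO was likewise under 2-fold (−0.68, adjusted *p* = 0.00952). *GABRP* rose in WT from 18 and 13 to 28 and 39 (1.06, adjusted *p* = 0.0264), while the epithelium markers went from 430 to 455 to 808 to 1110 in sum.

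In WT, where each day has 2 libraries and 1 is left when the other is omitted, the spread comes from all remaining libraries. *KCNQ1OT1* remained called without each of the 12 libraries in turn. *CACNG4* lost its call without WT replicate 1 of day 24 (log2 fold change 1.42, adjusted *p* = 0.0631), and *KCNT2* without WT replicate 1 of day 12 (−0.93, 0.0559). Without WT replicate 1 of day 12 the decreases of *GRIA1* (0.104) and *CACNA1A* (0.108) and the increases of *KCNH2* (0.282) and *GABRP* (0.0575) were also lost. *GRIA1*, *KCNE4*, *CACNA1A*, *KCNH2* and *GABRP* were lost without WT replicate 2 of day 24, at adjusted *p* of 0.0863, 0.076, 0.0844, 0.144 and 0.189. *KCNE4*, *CACNA1A* and *KCNH2* were lost without WT replicate 1 of day 24 (0.0651, 0.074 and 0.186), and *CACNA1A* and *GABRP* without WT replicate 2 of day 12 (0.0533 and 0.142). *KCNH2* was called in 3 of the 12 leave-outs, being lost also without 6 of the 8 KO libraries, and *GRIA2* gained a call without KO#2 replicate 1 of day 12. *KCNE4* was also not called without WT replicate 1 or KO#2 replicate 1 of day 12.

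In KO, *CACNG4*, *GRIA2*, *SCN3A* and *CACNA1A* remained called without each library in turn. Without KO#10 replicate 1 of day 24, *GRIA1* (log2 fold change −0.99) and *KCNE4* (−0.94) fell short of 2-fold. *KCNE4* also fell short without KO#2 replicate 2 of day 24, and *KCNJ13*, close to 2-fold, fell short without some libraries, at log2 fold changes of −0.85 to −0.94. *KCNN1* and *KCNH2* failed the filter on low scores without some KO libraries of day 24.

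**Figure D5:**
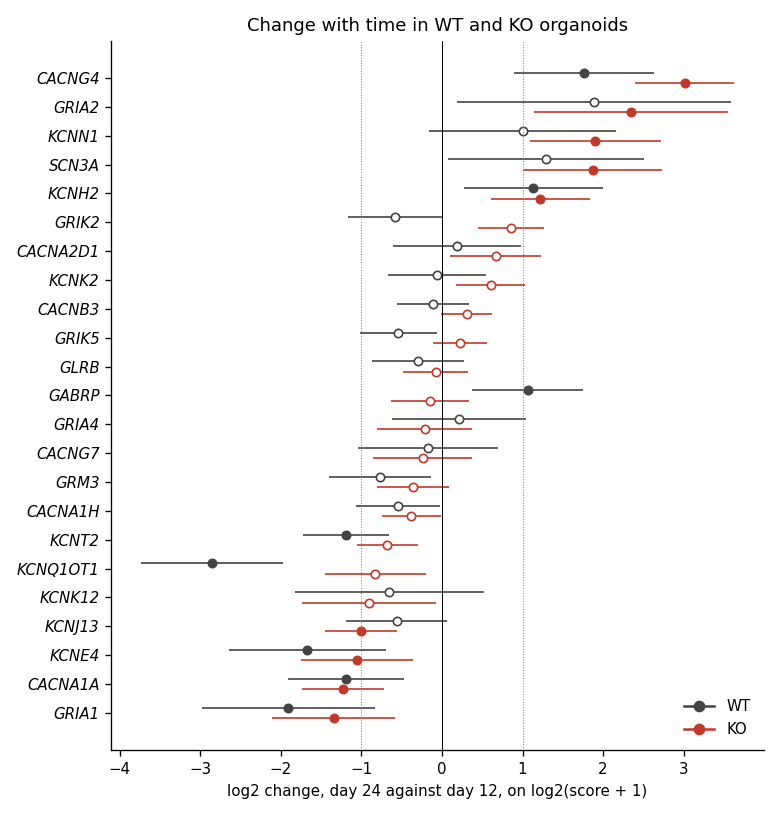
Log2 fold change of day 24 against day 12 in WT and in KO for 23 of the 25 genes tested (x axis, log2 of score + 1), with 95% intervals from limma. Filled points were called and dotted lines mark a change of 2-fold in either direction. *CACNG4* lies at 1.77 in WT and 3.01 in KO, and *KCNQ1OT1* at −2.85 in WT and −0.83 in KO.

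Whether the change over time differed between genotypes was tested by the interaction of genotype and day. None of the 25 genes was called, and 6 had an unadjusted *p* under 0.05. Over all 9952 genes, 0.452% were called higher and 0.854% lower (1.31% in all), and 21.5% had an unadjusted *p* under 0.05. The estimates nearest to a call were *GRIK2* (1.44, SE 0.33, limma adjusted *p* = 0.0532) and *KCNQ1OT1* (2.03, SE 0.50, adjusted *p* = 0.0626). *GRIK2* went from 11 and 8 to 7 and 5 in WT and from 5 to 8 to 10 to 15 in KO. Without KO#10 replicate 1 of day 24 both were called (*GRIK2* 1.40, adjusted *p* = 0.0223, and *KCNQ1OT1* 2.16, adjusted *p* = 0.0179), when 9.26% of all genes were. *CACNG4* (1.25, adjusted *p* = 0.171) and *GABRP* (−1.21, adjusted *p* = 0.113) were not called.

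Genes that work beside these channels were read from 4 further lists, to be set against the 4.22% of all genes called higher and 3.79% lower at day 24. Of 13 tested channel and receptor partners, *SHISA9* (log2 fold change 1.59, limma adjusted *p* = 0.0374) and *CNIH2* (1.46, adjusted *p* = 0.0396), both auxiliary proteins of AMPA receptors, were called higher at day 24 and none lower. Of 18 postsynaptic scaffold and adhesion genes, *NLGN3* (1.37, adjusted *p* = 0.027) and *NRXN2* (1.69, adjusted *p* = 0.0464) were called higher and none lower. Of 9 genes of transmitter synthesis and transport, *ABAT*, the enzyme that breaks down GABA, was called higher (1.82, adjusted *p* = 0.0195), with scores of 17 and 11 in WT, 59 and 56 for KO#2, and 36 and 56 for KO#10. Of 7 channels and receptors that the symbol rule leaves out, *TRPM3*, a cation channel, was called higher (2.66, adjusted *p* = 0.0223), and 1 gene was called lower. *TRPM3* scored 9 and 7 in WT, 59 and 34 for KO#2, and 118 and 40 for KO#10, with 118 in KO#10 replicate 1. It is also the choroid plexus marker called higher above. Without KO#10 replicate 1, against 7.86% and 6.8% of all genes, the partner list had 3 genes called higher, the scaffold list 2, the transmitter list 3, and the list left out by the rule 2 higher and 1 lower. *ABAT* was also called in the interaction of genotype and day (1.58, adjusted *p* = 0.0384).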

How the data were processed

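RNA-seq of 12 CO libraries was analysed. The authors deposited whole-number normalised scores for 10976 genes, 1 file per library. The submitters' processing notes list bcl2fastq, RSEM, Bowtie2 and the build mm10, without roles, but the identifiers are human, and all 52 are in GENCODE 29 (GRCh38) with overlapping intervals on the same strand, 20 of them identical. The normalisation is not given in the sources used here. Coordinates are the files' own. Of the 52 genes, 15 overlap another protein-coding gene.

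Scores were transformed as log2 (score + 1). A gene entered a comparison when 2 or more of its libraries scored 10 or more, and was tested with limma 3.58.1 (R 4.3.3; lmFit, eBayes with trend). Genes were called at a Benjamini-Hochberg adjusted *p* under 0.05 over all genes tested and at least 2-fold. KO and WT were compared within a day, days and the interaction over all 12 libraries, and clones in a fit of 3 groups. The smallest two-sided exact permutation *p* for 2 against 4 libraries is 0.0667, so limma was used. The named genes are those called between genotypes or in the interaction, up to 10 called in each day comparison, and the gene with the largest day 24 change of each family. Other genes, such as *GRIK5*, *SCN1A*, *KCNN3* and those listed for ranges or overlaps, were named after their values were seen. Members, lists and tests were chosen with earlier results of these data known. The tests were tried on simulated data.

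Same-numbered libraries, by their labels, correlated in their deviations at day 12 with r of 0.376 to 0.556, and the number was taken to pair them there. Protein sequences were not used here. The values of some genes are not reported here, though the counts and sums include them. Tables and figures used Python 3.11.15, numpy 2.4.6, pandas 2.3.3 and matplotlib 3.10.9. Alternatives were other filters, a pseudocount of 0.1, no trend, an unadjusted *p*, no fold threshold, other groupings, a replicate block and each library left out. The overlap counts and related lists at day 24 without KO#10 replicate 1, and the day comparisons without each of the 12 libraries, were added after seeing the data.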

Additional observations from a re-analysis of the deposited data

Results flagged for a closer look

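Over the named genes and the sum of all 52, in groups of 4 KO libraries, 1 of 40 groups had a library whose distance from the nearest other, relative to the range, was above Dixon's critical value at the 95% level, where chance alone flags about 1 in 20. *KCNN1* scored 1 in KO#2 replicate 1 at day 12, and 2 in the other 3 KO libraries of that day. When 3 whole-number scores tie, the ratio takes its largest possible value at any distance. The chance rate holds for values without ties, so no outlier is read from this flag.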

How the results depend on the processing

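Counts of called genes depended on the low scores. Without a filter on low scores, 4 genes were called higher at day 24 (*GABRA3* and *KCNQ1OT1* were added), 6 in the WT and 12 in the KO comparison of days, and 1 in the interaction, against 3.95%, 7.41%, 7.22% and 0.538% of all genes. With a score of at least 20 required, 1 was called higher at day 24, 3 lower over time in WT and 3 higher over time in KO (4.67%, 8.36% and 5.48% of all genes). At an unadjusted *p*, 2 were called lower at day 12, 5 higher over time in WT, and 3 higher and 1 lower in the interaction (0.732%, 8.29%, 4.51% and 5.17%). A pseudocount of 0.1 or no trend gave 1 higher in the interaction (0.452% and 0.583%). Leaving out 1 library gave 0 to 2 genes higher and 0 to 1 lower at day 24, 4 to 7 higher and 2 to 5 lower over time in KO, and 0 to 2 higher in the interaction. Over time in WT it gave 1 to 2 higher and 1 to 4 lower without 1 of the 4 WT libraries, and 1 to 4 higher and 1 to 5 lower over all 12, which was added after seeing the data. All genes called ranged from 0.0224% to 14.7% at day 24, 8.18% to 15.9% over time in WT, 10.2% to 12.2% in KO and 0.111% to 9.26% in the interaction. *KCNJ13* at day 24 turned positive without WT replicate 1 (0.0365), KO#2 replicate 2 (0.0824) or KO#10 replicate 2 (0.0317), and was −0.163 without KO#10 replicate 1. The cause was not tested.

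With the replicate number as a block, 1 gene was called lower at day 12 and 2 higher in the interaction (*GRIK2* and *KCNQ1OT1*), against 0.394% and 1.3% of all genes. With the same block, 0 were called higher in KO#2 and 0 lower in KO#10, where the share over all genes was not taken. At day 24 the same-numbered libraries correlated with r of −0.0944 to 0.328 and across days with 0.0387 to 0.241, so that the number was not taken to pair them. With all 12 libraries in 1 fit, 1 gene was called higher in KO#10, and the share over all genes was not taken there either. Over the named genes, 396 alternative values kept their direction and side of the threshold, 36 lost a call, 2 gained one and 3 changed sign. Depth could not be assessed, since the scores carry none.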

Other observations

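Genes outside the symbol rule also moved with day. Over all genes, 7.17% were called higher and 7.88% lower over time in WT, and 5.88% higher and 5.59% lower in KO. Of 14 tested channel and receptor partners, *FGF13*, a modulator of sodium channels, was called higher over time in WT (log2 fold change 1.18, limma adjusted *p* = 0.0255) and in KO (1.26, adjusted *p* = 0.00229), and *SHISA9* lower in both (−2.83 and −1.13). *CNIH2* (1.41) and *CNTNAP2* (1.23) were called higher in KO, and *ANK2* lower in WT (−1.40). *KCTD12*, an auxiliary subunit of GABA-B receptors, rose in WT (3.09, adjusted *p* = 0.00075) and in KO (2.63), while *GABBR1*, a GABA-B receptor subunit, was called lower in WT (−1.46). *SLC17A6*, which loads glutamate into vesicles, was called higher in WT (1.59) and in KO (1.85). In WT it scored 1 and 1 at day 12 and 5 and 5 at day 24. It passed the filter on low scores through KO libraries of day 24 alone, and *KCTD12* through day 24 libraries alone. Of 21 postsynaptic scaffold and adhesion genes, 5 were called lower and 0 higher in WT, and 2 lower and 1 higher in KO.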
